A study of Caenorhabditis elegans with 8 samples.

Results

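Transcripts of 8 Caenorhabditis elegans genes that copy past damaged DNA or join broken DNA ends were compared between worms mutant for ercc-1 and wild type. The genes were chosen by name, as those whose symbol the platform annotation pairs with a probe set of a single gene. They were polh-1, polq-1, rev-1, rev-3, lig-1, lig-4, cku-70 and cku-80, 8 of the 17118 genes measured, and 11 probe sets read them. A gene with more than 1 probe set is represented by its brightest one, by mean over the 8 arrays, called its main probe set. All 8 genes met the annotation, and their main probe sets lay above 6.425, the level that bounds the lowest 25% of probe sets by mean.

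RNA was taken from cultures of mixed stage, which hold embryos, larvae and adults together, and measured on Affymetrix C. elegans Genome Arrays with 1 colour. One group of 4 arrays carried RNA of an ercc-1 strain, which the labels call deficient in nucleotide excision repair and place in the N2 background. The labels give no allele. The other 4 arrays carried wild type N2 RNA, from the common laboratory strain. The food of both groups over 3 to 4 days of culture was Escherichia coli HT115(DE3) with the plasmid pL4440, the usual empty control of feeding RNA interference. The labels do not say whether replicates were separate cultures, so the p-values describe the spread among these arrays alone, and that spread may be technical.

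ERCC-1 is a subunit of the nuclease that cuts damaged strands in nucleotide excision repair, the pathway that removes bulky lesions from DNA. A lesion that is not removed can stall the replication fork, and translesion polymerases then copy past it, at the price of more errors. A fork that collapses, or a duplex cut on both strands, leaves a broken end. Broken ends can be joined directly by the Ku proteins and ligase IV, or through short matching stretches by polymerase theta, which in worms is a major route for breaks that arise at blocked replication.

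The values are log2 expression levels as the authors deposited them, and a difference is mutant minus wild type on that scale. Median log2 levels ran from 7.44 to 7.59 over mutant arrays and from 7.39 to 7.44 over wild-type arrays, and the mean of these medians was 0.090 higher in the mutant. The ercc-1 probe set itself had a mean of 9.84 ± 0.0737 on mutant arrays against 9.85 ± 0.124 on wild-type arrays (SD, n = 4 each). The stretch of the gene that its probes read is not known here, and it does not check the labels. Over the whole array 150 of 22548 probe sets, or 0.665%, passed an adjusted p of 0.05 in limma's moderated test, 121 higher and 29 lower in the mutant. With arrays scaled to equal medians the split was 75 and 41. Leaving out wild-type replicate 1, 2, 3 or 4 left 37, 29, 34 and 31 calls, and leaving out mutant replicate 1, 2 or 4 gave 89, 80 and 268. With array weights the count was 1423 of 22548, and 0 of the 8 genes were among them. A set of 8 genes can easily hold 0 calls at such a share, so nothing is read from this. The weights also rested the mutant group mostly on replicate 2, with 5.05 against 0.624, 0.458 and 0.322 for replicates 1, 3 and 4.

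For none of the 8 genes did the difference between mutant and wild type pass the test. The count called was 0 of 8, against a background of 0.672% of genes called. The smallest adjusted p among the 8 was 0.665, and 0 of the 8 had an unadjusted p under 0.05, which 10.5% of all genes had. The mutant and wild-type values overlapped in 8 of 8 genes, while the groups did not overlap in 6.88% of all genes. The log2 differences ran from -0.15 for cku-80 to 0.080 for polq-1. RNA of whole worms was measured, so fewer cells of a type and less RNA per cell cannot be told apart.

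Each gene's confidence interval also gives the differences that these arrays allow. The intervals are unadjusted, taken gene by gene, and reflect the spread among these arrays alone, so they do not bound the difference between the strains. Among the 8 main probe sets, the 95% confidence interval that reached farthest from 0 was that of cku-80, which allowed a change of up to 1.29-fold. The smallest estimated difference among the 150 called probe sets was 0.37 on the log2 scale, or 1.29-fold, and their median was 1.79-fold. These are estimates, not ends of intervals. The interval that reached farthest allowed 1.4-fold when arrays were scaled to equal medians or by quantiles, and between 1.25-fold and 1.34-fold when any 1 array was left out. The sign of most of these small differences hung on the scaling. As deposited, 5 were above 0 and 3 below. After quantile normalization 2 were above and 6 below, and after median centring 8 of 8 were below, between -0.24 and -0.010. The median over all genes moved as well, from 0.030 as deposited to -0.013 after quantile normalization and -0.060 after median centring. Over the 8 genes the medians were 0.045, -0.019 and -0.045 in the same order, so the move of signs was not particular to them. The number of the 8 genes called was 0 under each of these scalings.

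**Figure D1:**
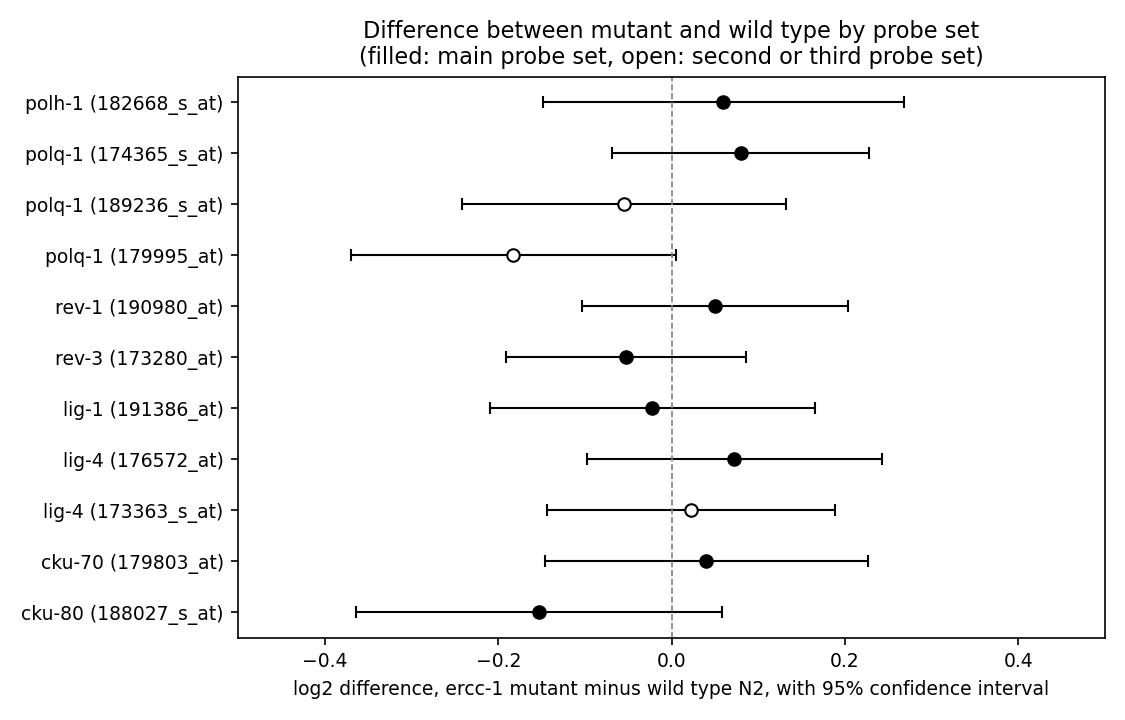
Log2 difference between ercc-1 mutant and wild type N2 (x axis) for the 11 probe sets of the 8 genes (y axis), with bars for the 95% confidence interval of limma's fit over 4 arrays per group. Filled points are main probe sets, open points the further probe sets of polq-1 and lig-4; all 11 intervals cross 0.

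Among the translesion polymerases, polh-1 encodes polymerase eta, which copies past ultraviolet photoproducts. Its log2 levels on replicates 1 to 4 were 10.01, 10.08, 10.37 and 10.19 for the mutant and 10.11, 10.19, 9.97 and 10.14 for wild type. Mutant replicate 3 was the highest of the 8 arrays and wild-type replicate 3 the lowest, and the other 6 values lay between 10.01 and 10.19 in both groups. The means were 10.16 ± 0.157 and 10.1 ± 0.0943 (SD, n = 4 each). Their log2 difference of 0.060 (SE 0.0929, 95% interval -0.15 to 0.27) did not pass (adjusted p = 0.9), and it read -0.0092 without mutant replicate 3 and -0.030 after median centring.

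The gene rev-1 encodes a polymerase of the same family as POLH-1 that inserts cytosine opposite damaged bases and serves as a platform for other translesion polymerases. It read 9.47, 9.37, 9.49 and 9.33 on the mutant arrays and 9.44, 9.32, 9.36 and 9.34 on the wild-type arrays. Replicates 1 and 3 of the mutant and replicate 1 of wild type stood above the other 5 arrays, which fell between 9.32 and 9.37. The log2 difference was 0.050 (SE 0.0685, 95% interval -0.10 to 0.20, adjusted p = 0.88), and -0.040 after median centring.

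The catalytic subunit of polymerase zeta, which extends a strand from the base placed opposite a lesion, is encoded by rev-3. Its levels were 8.73, 8.78, 8.74 and 8.84 in the mutant and 8.82, 8.85, 8.79 and 8.84 in wild type. These were the tightest values of the 8 genes, spanning 0.11 among mutant replicates and 0.060 among wild-type replicates. Its interval, -0.19 to 0.086 around a log2 difference of -0.0525 (adjusted p = 0.851), was also the narrowest of the 8 and allowed a change of up to 1.14-fold.

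Polymerase theta, encoded by polq-1, joins ends through short matching stretches and was read by 3 probe sets. The main one gave 9.64, 9.7, 9.76 and 9.73 in the mutant and 9.62, 9.68, 9.54 and 9.67 in wild type. Of the 8 arrays, wild-type replicate 3 was the lowest and mutant replicate 3 the highest. The log2 difference was 0.080 (SE 0.0661, 95% interval -0.068 to 0.23, adjusted p = 0.771), the largest of the 8 above 0 as deposited, and it was -0.010 after median centring.

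The other polq-1 probe sets did not follow the main one. The second read 8.56, 8.49, 8.69 and 8.36 in the mutant and 8.67, 8.54, 8.54 and 8.57 in wild type, a log2 difference of -0.055 (adjusted p = 0.897). The last set read 5.47, 5.54, 5.79 and 5.71 in the mutant and 5.86, 5.78, 5.79 and 5.81 in wild type, below the bound of the lowest 25% of probe sets. Its 4 wild-type values lay within 0.080 of each other, mutant replicates 1, 2 and 4 lay below all of them, and mutant replicate 3 equalled wild-type replicate 3. The last set's log2 difference was -0.18 (SE 0.0836, 95% interval -0.37 to 0.0053, adjusted p = 0.521). Over the 8 arrays the main probe set correlated with the second at r = -0.11 and with the last at r = -0.12. Without the 2 arrays farthest from the main set's median these values were -0.94 and -0.14, over 6 arrays. The mean log2 difference over the 3 sets was -0.0525. Which part of the transcript each set reads is not known here.

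**Figure D2:**
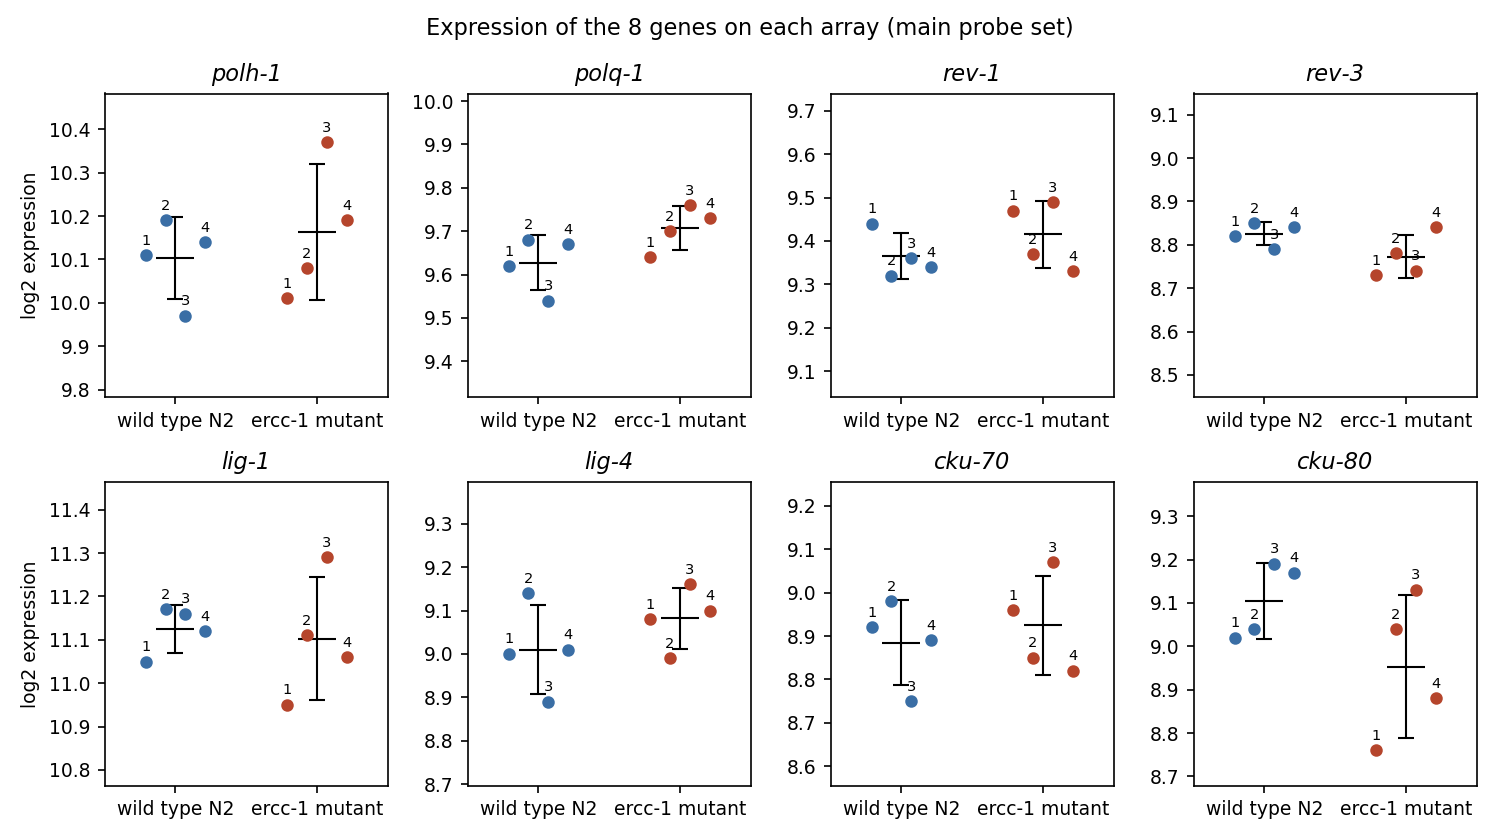
Log2 expression (y axis) of the main probe set of each of the 8 genes on the 4 wild type N2 arrays (blue) and the 4 ercc-1 mutant arrays (red), with replicate numbers beside the points and black bars for the mean ± SD. Each panel spans the same height in log2 units, and the groups overlap in 8 of 8 panels.

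The Ku proteins CKU-70 and CKU-80 form a ring that loads onto broken ends and starts direct end joining. The level of cku-70 was 8.96, 8.85, 9.07 and 8.82 on the mutant arrays and 8.92, 8.98, 8.75 and 8.89 on the wild-type arrays. Again mutant replicate 3 was the highest and wild-type replicate 3 the lowest of the 8. The log2 difference was 0.040 (SE 0.0829, 95% interval -0.15 to 0.23, adjusted p = 0.931), with -0.0083 without mutant replicate 3, -0.0050 without wild-type replicate 3 and -0.050 after median centring.

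The level of cku-80 was 8.76, 9.04, 9.13 and 8.88 on the mutant arrays and 9.02, 9.04, 9.19 and 9.17 on the wild-type arrays. Mutant replicates 1 and 4 lay below all wild-type arrays, mutant replicate 2 equalled wild-type replicate 2, and mutant replicate 3 lay above wild-type replicates 1 and 2. The means were 8.95 ± 0.165 for the mutant arrays and 9.11 ± 0.0874 for those of wild type (SD, n = 4 each). Their log2 difference of -0.15 (SE 0.094, 95% interval -0.36 to 0.059, adjusted p = 0.665) was the largest in size of the 8, and 26.2% of all probe sets on the array differed by more. Leaving out any 1 of the 8 arrays kept it below 0, from -0.21 without mutant replicate 3 to -0.088 without mutant replicate 1. Without mutant replicate 3 the unadjusted p of cku-80 in limma's test was under 0.05 (adjusted p = 0.39). Leaving out any other array gave 0 of the 8 genes under that level. After median centring it was -0.24 (95% confidence interval -0.49 to 0.0045, adjusted p = 0.43).

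Since the 2 Ku proteins act as a pair, the log2 ratio of cku-80 to cku-70 was also taken within each array, a comparison added after the values were seen. The ratio was -0.20, 0.19, 0.060 and 0.060 on the mutant arrays and 0.10, 0.060, 0.44 and 0.28 on the wild-type arrays. Mutant replicate 1 had the lowest ratio and wild-type replicates 3 and 4 the highest. The ratio was 0.19 lower in the mutant on average (log2 difference -0.19), and a two-sided exact permutation test, whose 70 assignments allow no p below 0.0286, gave p = 0.2. The same ratio test gave exact p = 0.371 for lig-4 against lig-1 and exact p = 0.229 for rev-3 against rev-1, with log2 differences of 0.095 and -0.10. Adjusted over the 3 ratios, the p-values were 0.343, 0.371 and 0.343.

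LIG-4 seals the ends that the Ku proteins hold together. The main lig-4 probe set read 9.08, 8.99, 9.16 and 9.1 in the mutant and 9, 9.14, 8.89 and 9.01 in wild type, with the lowest value on wild-type replicate 3 and the highest on mutant replicate 3. Its log2 difference was 0.0725 (SE 0.0758, 95% interval -0.098 to 0.24, adjusted p = 0.831), and -0.0175 after median centring. The second lig-4 probe set gave 0.0225 (adjusted p = 0.96), with 8.77, 8.63, 8.7 and 8.7 in the mutant and 8.76, 8.71, 8.53 and 8.71 in wild type. Both lig-4 sets were lowest on wild-type replicate 3.

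LIG-1 is the ligase that joins the short fragments of the lagging strand in every round of replication. Its levels were 10.95, 11.11, 11.29 and 11.06 in the mutant and 11.05, 11.17, 11.16 and 11.12 in wild type. The mutant values enclosed the wild-type ones, with mutant replicate 1 the lowest and mutant replicate 3 the highest of the 8 arrays. The means were 11.1 ± 0.142 and 11.12 ± 0.0545 (SD, n = 4 each), and the log2 difference was -0.0225 (SE 0.0835, 95% interval -0.21 to 0.17, adjusted p = 0.966). It was 0.028 without mutant replicate 1.

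Arrays of the same group also differed from each other. The range over the 4 mutant arrays was 0.11 to 0.37 on the log2 scale and exceeded the difference between the groups for each of the 8 genes. A range of single values tends to exceed a difference of means, so nothing is concluded from this. Of the 8 genes, 6 had their highest value on mutant replicate 3, and 4 had their lowest on wild-type replicate 3 and 3 on mutant replicate 1. Relative to its wild-type mean, an average gene of the 8 stood at 0.12 on mutant replicate 3, at -0.056, -0.016 and -0.012 on mutant replicates 1, 2 and 4, and between -0.049 and 0.041 on the wild-type arrays. The SD was larger among mutant than among wild-type arrays in 6 of the 8 genes (median SD 0.0956 and 0.0757). Over all genes it was larger among mutant arrays in 11473 of 17118, with medians of 0.151 and 0.111.

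**Figure D3:**
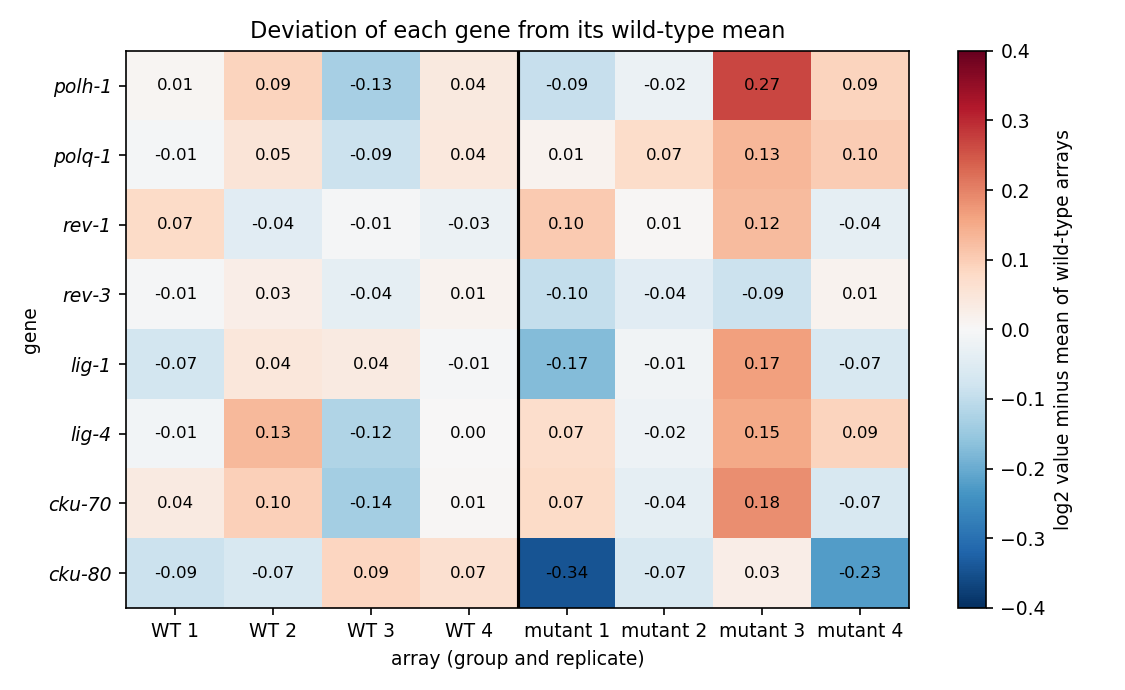
Log2 value of each of the 8 genes (rows) on each array (columns, wild type left of the line and mutant right of it) minus the mean of the 4 wild-type arrays. Mutant replicate 3 is the highest array for 6 of the 8 genes, and cku-80 on mutant replicates 1 and 4 holds the lowest values of the grid.

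Marker transcripts of tissues also varied between the same arrays. Mean log2 levels of 12 germ line markers were 10.45, 10.47, 10.57 and 10.49 on mutant replicates 1 to 4 and between 10.51 and 10.55 in wild type. Mutant replicate 3 was thus also the highest of the 8 arrays for this list, by little, while wild-type replicate 3, at 10.54, was not its lowest. The mean of 10 oocyte markers was highest on mutant replicate 3, at 12.27, and lowest on wild-type replicate 3, at 12.07. For 4 body wall muscle markers the level was 10.67 on mutant replicate 1, 9.41 on mutant replicate 3 and 10.08 and 9.92 on mutant replicates 2 and 4, against 9.31 to 9.95 in wild type. Of the germ line markers 0 of 12 passed, with glp-1 the farthest at -0.15 (adjusted p = 0.647), and 0 of 10 oocyte markers, with cbd-1 at -0.0475 (adjusted p = 0.904). The part of germ line, oocyte and muscle transcripts in the values of the 8 genes was not tested.

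Sperm and male markers held calls. Of 9 sperm markers 3 were called higher and 0 lower, with msp-77, a major sperm protein gene, 2.13-fold higher (adjusted p = 0.0277). The list's mean level was 8.19 to 8.69 in the mutant and 7.72 to 7.86 in wild type. The called ssp-10, msp-49 and msp-77 differed by 0.78, 1.065 and 1.0925, and the uncalled gsp-3 and gsp-4 by 0.7625 and 0.615. Probe sets of these genes have names ending in _x_at, and how far they also read related genes is not known here. On the mutant arrays gsp-3 read 7.55, 7.52, 7.55 and 8.45 and gsp-4 read 7.55, 7.44, 7.37 and 8.38. The sperm calls are thus not taken as separate readings of single genes. The log2 differences of spe-11, spe-9, spe-38 and fer-1 were 0.29, 0.040, 0.0325 and 0.0275, without a call. Of 5 male markers 1 rose, cwp-2 (log2 difference 0.68, adjusted p = 0.029), whose mean of 5.53 lies among the lowest 25% of probe sets, and the list's mean levels were 6.22 to 6.4 and 5.95 to 6.09. Without any 1 of the wild-type replicates 1 sperm marker, ssp-10, stayed past the threshold, while adjusted p was 0.0881 to 0.123 for msp-77 and 0.0876 to 0.126 for cwp-2. Their log2 differences in these fits were 1.05 to 1.13 and 0.65 to 0.71, about as large as with all arrays. After median centring cwp-2 read 0.585 (adjusted p = 0.0813). No marker passed among 4 yolk, 4 intestine, 4 body wall muscle, 4 neuron and 4 cuticle genes, where the largest log2 differences were 0.13 for vit-2, 0.10 for ges-1, 0.51 for unc-54, 0.14 for rab-3 and -0.24 for sqt-1 (adjusted p from 0.46 to 0.86). The markers of germ line, oocyte, yolk, intestine, muscle, neuron and cuticle lay above the lowest 25% of probe sets in full, as did 7 of 9 sperm and 2 of 5 male markers.

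The sizes of these differences were set beside those of the other genes. The median absolute log2 difference was 0.056 over the 8 genes and 0.0875 over the 12852 genes above the lowest 25% of probe sets. Signed medians were 0.045 over the 8 and 0.030 over all genes. Between 26.2% and 84.1% of all probe sets differed by more than a given one of the 8, the lower percentage for cku-80 and the higher for lig-1.

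**Figure D4:**
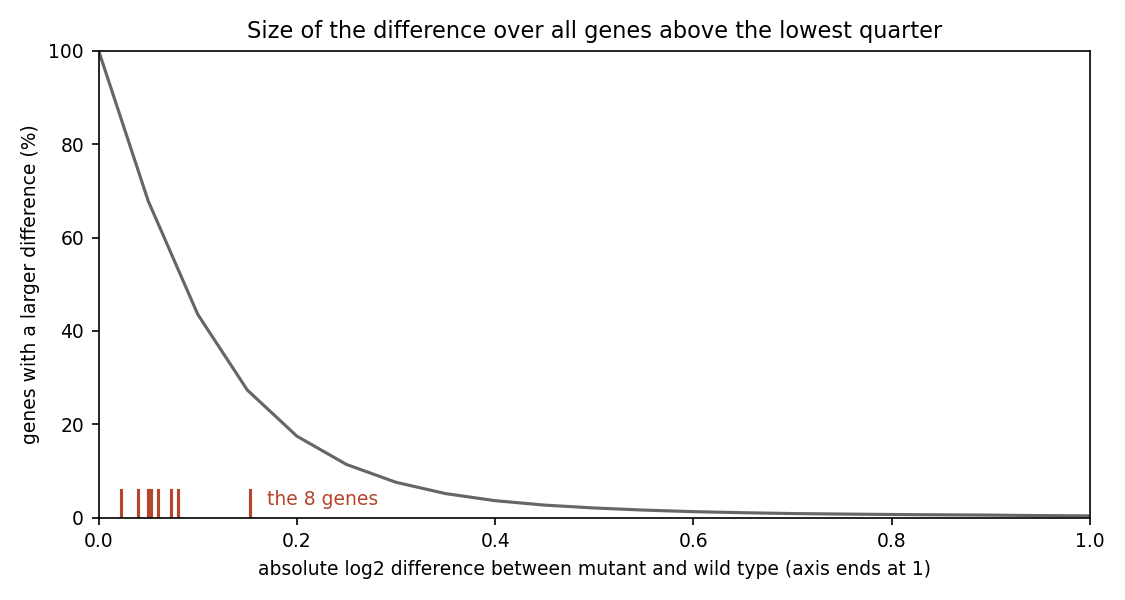
Percent of the 12852 genes above the lowest 25% of probe sets (y axis) whose absolute log2 difference between mutant and wild type exceeds the value on the x axis, which ends at 1. Red ticks mark the 8 genes, whose absolute differences run from 0.0225 for lig-1 to 0.15 for cku-80.

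Partners of the translesion polymerases likewise showed no call. The list held the polymerase kappa gene polk-1, the sliding clamp gene pcn-1, the 4 clamp loader genes rfc-1 to rfc-4 and uev-1, which encodes a cofactor of the enzyme that puts ubiquitin chains on the clamp. Of these 7 measured genes 0 were called higher and 0 lower, against 0.672% of all genes called. Their log2 differences were above 0 in 1 and below 0 in 6, with a median of -0.0225. The genes ubc-1 and ubc-13 had no probe set of their own. The smallest p belonged to rfc-4, which read 11.43, 11.45, 11.36 and 11.33 in the mutant and 11.48, 11.45, 11.65 and 11.45 in wild type (log2 difference -0.12, adjusted p = 0.678), and to uev-1 (-0.10, adjusted p = 0.727). Wild-type replicate 3 was the highest array for both.

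The probe sets of polk-1 also disagreed in the size of the difference. Unlike those of polq-1 they varied together over the 8 arrays (r = 0.81, rho = 0.78). Without the 2 arrays farthest from the main set's median r was 0.58. The main one gave a log2 difference of 0.010 (adjusted p = 0.985). The second read 9.82, 10.26, 10.32 and 9.49 in the mutant and 10.21, 10.31, 10.17 and 10.3 in wild type, so that mutant replicates 1 and 4 lay below the other 6 arrays. Its log2 difference was -0.28 (SE 0.169, 95% interval -0.65 to 0.10, adjusted p = 0.661). Mutant replicates 1 and 4 were the 2 lowest arrays for cku-80 as well.

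Polymerases that copy undamaged DNA gave no call either. Of 7 genes in this list 0 were called higher and 0 lower, against 0.672% of all genes called. Their log2 differences were above 0 in 5 and below 0 in 2, with a median of 0.0325. The intervals of the main probe sets allowed at most 1.2-fold. The further probe sets of pri-2, a primase subunit gene, were wider, with 0.0625 and -0.16 and bounds of 1.34-fold and 1.48-fold (adjusted p = 0.945 and 0.847). The mitochondrial polymerase gene polg-1 read 8.73, 8.68, 8.74 and 8.65 in the mutant and 8.63, 8.66, 8.6 and 8.58 in wild type (log2 difference 0.0825, adjusted p = 0.74), and pri-1, for the other primase subunit, differed by 0.0425 (adjusted p = 0.887). The values of pold-1 and pole-1, for the catalytic subunits of polymerases delta and epsilon, were 0.0125 and -0.030.

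Of 13 genes that trim, unwind or mark broken ends 0 were called higher and 0 lower, against 0.672% of all genes called. Their log2 differences were above 0 in 7 and below 0 in 6, with a median of 0.0075. The intervals of the main probe sets allowed at most 1.24-fold. The lowest p of a main probe set was that of dog-1, a helicase that in worms guards guanine-rich tracts, at which its loss leads to deletions made by polymerase theta. It read 8.4, 8.35, 8.45 and 8.26 in the mutant and 8.49, 8.39, 8.51 and 8.41 in wild type (log2 difference -0.085, adjusted p = 0.77). The nuclease and helicase gene dna-2 followed at -0.085 (adjusted p = 0.801). The helicase gene helq-1, the nuclease gene mre-11 and the 2 poly(ADP-ribose) polymerase genes parp-1 and parp-2 read -0.015, 0.0125, 0.0725 and -0.0075.

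A second probe set of rpa-1, a gene for a subunit of the protein that coats single-stranded DNA, stood farther from 0 than any main set of that list. It read 6.73, 6.94, 6.99 and 6.58 in the mutant and 7.2, 7.08, 6.98 and 7.03 in wild type, where mutant replicates 1, 2 and 4 lay below all wild-type arrays. Its log2 difference was -0.26 with an unadjusted 95% interval of -0.49 to -0.033, which does not hold 0 and allows 1.41-fold, and it was not called (adjusted p = 0.423). The main rpa-1 set read 0.0075.

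The 8 genes lie unevenly over the genome in the RefSeq table (assembly WBcel235). Chromosome III holds 6 of the 8 and 13.2% of measured genes, while rev-1 lies on chromosome II and lig-1 on chromosome V. On chromosome III rev-3 and polq-1 are next to each other, with 0 annotated genes between them. Their log2 levels over the 8 arrays correlated at r = -0.033. The homeobox gene ceh-10 lies within the span of polq-1. Its probe set read 7.42 ± 0.114 on mutant arrays and 7.39 ± 0.133 on wild-type arrays (SD, n = 4 each, adjusted p = 0.946), and whether probes of polq-1 also read ceh-10 transcripts is not known here.

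The variation of the 8 genes over the arrays was compared pair by pair. Over the 28 pairs of genes, r over the 8 arrays ran from -0.82 to 0.835 with a median of 0.194, and 19 of 28 (67.9%) were above 0. Over the pairs of all 12852 genes above the lowest 25% of probe sets the median r was 0.041, and 53.1% were above 0. All pairs share the same 8 RNA samples, and nothing particular to the 8 genes is read from their median. The highest was that of polh-1 and polq-1 (r = 0.835, rho = 0.79; r = 0.544 without the 2 arrays farthest from the polh-1 median). The lowest was that of rev-1 and rev-3 (r = -0.82, rho = -0.898; r = -0.41 without 2 arrays). The subunit genes cku-70 and cku-80 correlated at r = -0.12.

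For each gene the 2 genes with the most similar profile over the 8 arrays were taken from 12851 candidates above the lowest 25% of probe sets, as a description. The closest match of all was lig-1 with rfc-2, a clamp loader gene (r = 0.991, rho = 0.994; r = 0.96 without the 2 arrays farthest from the lig-1 median). The rfc-2 levels were 10.91, 11.03, 11.17 and 11 in the mutant and 10.98, 11.1, 11.06 and 11.03 in wild type, lowest on mutant replicate 1 and highest on mutant replicate 3 like those of lig-1. The second rfc-2 probe set was highest on mutant replicate 4 instead, at 8.94. The next match of lig-1 was snpc-1.2 (r = 0.974).

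**Figure D5:**
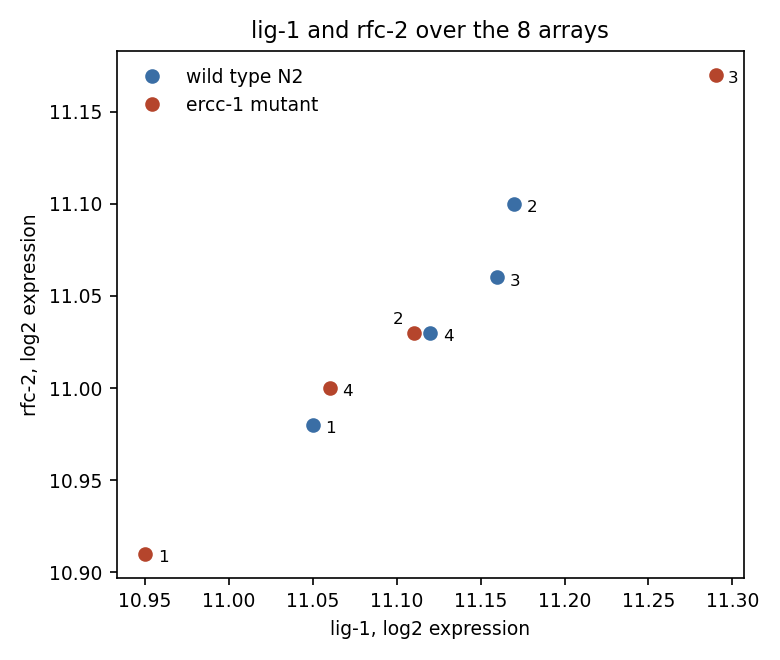
Log2 expression of rfc-2 (y axis) against that of lig-1 (x axis) on the 4 wild type N2 arrays (blue) and the 4 ercc-1 mutant arrays (red), with replicate numbers beside the points. The 2 genes order the arrays almost alike (rho = 0.994), with mutant replicate 1 at the lower end and mutant replicate 3 at the upper end.

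For the other 7 genes the closest matches were puf-11 and asps-1 for polh-1 (r = 0.979 and 0.969), osm-6 and ztf-1 for polq-1 (0.963 and 0.96), glh-3 and ZC395.5 for rev-1 (0.979 and 0.975), and T24D1.2 and cyp-44A1 for rev-3 (0.964 and 0.962). They were dao-5 and F26D2.10 for lig-4 (0.936 and 0.935), cdk-9 and cest-2.1 for cku-70 (0.948 and 0.948), and cyp-31A5 and F14H3.5 for cku-80 (0.969 and 0.96). Without the 2 arrays farthest from each gene's median, r over the remaining 6 arrays was between 0.796 and 0.986 for these 14 matches. The best of so many candidates correlates highly over 8 arrays by selection. Of the 16 matched genes 0 were called between mutant and wild type, against 0.672% of all genes. They were picked to resemble uncalled genes on the same arrays, so nothing is read from this count.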

How the data were processed

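Total RNA, extracted with TRIZOL and labelled with biotin per the labels' protocols, was measured on 8 arrays, 4 per group. The authors deposited 1 log2 expression value per probe set and array; the log base is read from the values, which end at 14.38. Affymetrix Expression Console 1.1 made them, per the submitters' processing notes. Its summarisation method is not given in the sources used here. Detection calls and background levels were not used. For arrays, their number limits the precision.

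By the platform annotation 20766 probe sets name 1 gene, 887 name several and 895 name no gene; RefSeq holds the gene of 20701 of the first kind and changed 0 symbols. Groups were compared by limma 3.58.1 under R 4.3.3 (functions lmFit and eBayes, two-sided, Benjamini-Hochberg adjustment over 22548 probe sets, called under 0.05), and the fit was tested on simulated data. The members, lists and tests were chosen with earlier results of these data known. Named are all members, the called or else the 2 lowest-p genes of each repair list, the marker with the largest difference in each marker list and the 2 most similar genes of each member; other list genes, second probe sets, ceh-10 and the within-array ratios were named after their values were seen. Alternatives were quantile normalization, median centring, no dim probe sets, array weights, a robust variance with trend, a block for the replicate number, other probe sets or thresholds, and leaving out each array. The within-array ratios and the marker calls without single arrays or under other scalings were added after seeing the data.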

Additional observations from a re-analysis of the deposited data

Results flagged for a closer look

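The values examined included those of the 8 genes, the 3 repair lists, the named markers, ercc-1 and ceh-10, with mutant and wild type taken apart. Of 118 groups of 4 values, 10 held a value far from the other 3 of its group, where chance gives about 1 in 20. None of the 10 belonged to one of the 8 genes. In wild type rfc-4 read 11.65 on replicate 3 against 11.45 to 11.48 on the others, pri-1 read 10.34 on replicate 2 against 10.26 to 10.27, vit-2 read 13.36 on replicate 3 against 13.56 to 13.6, and the second mre-11 probe set read 9.97 on replicate 3 against 10.1 to 10.12. On mutant replicate 4 msp-77 read 13.04 against 12.27 to 12.31, a further pri-2 probe set 8.02 against 7.15 to 7.27, rpa-1 10.49 against 10.8 to 10.86 and rpa-2 11.15 against 11.45 to 11.5. The main mre-11 probe set read 10.58 on mutant replicate 1 against 10.69 to 10.7, and pold-1 read 10.23 on mutant replicate 3 against 9.99 to 10.03.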

How the results depend on the processing

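The number of the 8 genes called was 0 in every alternative run, also with any probe set of a gene or an adjusted p under 0.1, and the lowest adjusted p of a main probe set in any of them was 0.39, for cku-80 without mutant replicate 3. The 3 repair lists held 0 calls in each of the alternatives run on them. Of 114 alternative values of the 8 log2 differences 16 changed sign, all of uncalled genes with differences near 0. After quantile normalization these were rev-1 (-0.00031), lig-4 (-0.0033) and cku-70 (-0.035). After median centring, which lowers every difference by 0.090, they were polh-1 (-0.030), polq-1 (-0.010), rev-1 (-0.040), lig-4 (-0.0175) and cku-70 (-0.050). With array weights they were polh-1 (-0.030), lig-4 (-0.020) and cku-70 (-0.034). The mean over the polq-1 probe sets was -0.0525. Leaving out 1 array gave ranges of -0.0092 to 0.11 for polh-1, -0.0083 to 0.075 for cku-70 and -0.085 to 0.028 for lig-1. The number of probe sets called over the whole array was 150; it ran from 29 to 268 when 1 array was left out (29 without wild-type replicate 2, 268 without mutant replicate 4), and was 1423 with array weights and 246 at an adjusted p under 0.1. With the replicate number as a block 125 probe sets and 0 of the 8 genes were called. Samples with the same number shared deviations only in part, with correlations of 0.473, 0.014, 0.040 and 0.201 for numbers 1 to 4. Of the 4 mutant arrays 1 was closest to its own number. So few correlations cannot decide whether the numbers pair the samples. The causes of the sign changes and of the changes in count were not tested.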
